A study of Homo sapiens with 6 samples.

Results

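The interferon regulatory factor (IRF) family was followed in INA-6 cells treated with the EZH2 inhibitor UNC1999. The members were found by symbol in the probe annotation of the arrays, which gave 8 genes. Of these, 7 (IRF1, IRF2, IRF3, IRF4, IRF5, IRF7 and IRF8) had a transcript cluster of their own, among 21921 genes with such a cluster. IRF9 shared its cluster with the adjacent gene RNF31. Each of the 8 genes was on 1 cluster only, and no choice between clusters was needed.

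INA-6, a human multiple myeloma (MM) line established in culture, was grown with interleukin-6. UNC1999 was given to 3 cultures and UNC2400, the inactive counterpart of that inhibitor, to 3 others, each at 1 μM for 120 hours with fresh medium and compound at 72 hours. Cells had been seeded at 100000 per mL the night before, and total RNA was hybridised to Affymetrix arrays, 1 array per culture. According to the labels the control arrays are those of UNC2400, while the main text speaks of DMSO, a solvent, and the labels were followed here. A single cell line at a single dose and time was profiled. Replicates are described as biological, but no label says what separated them, so that p-values measure the spread between these 6 arrays.

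IRF proteins share a DNA-binding domain that reads GAAA repeats, the core of interferon-stimulated response elements. IRF3, IRF5 and IRF7 are switched on by kinases below innate immune sensors and induce interferon genes, IRF9 joins STAT proteins in the complex that answers type I interferon, and IRF1 and IRF2 compete for the same sites as activator and, mostly, repressor. IRF4 and IRF8 are best known in blood cells, bind DNA poorly alone and act with partners. IRF4 is required for germinal centre exit and plasma cell formation, and MM cells depend on it for growth.

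The family moved in both directions. IRF4 was 2.43-fold lower and IRF2 1.48-fold lower with UNC1999, IRF1 was 1.27-fold higher, and IRF3, IRF5, IRF7 and IRF8 did not pass the test. Thus 3 of 7 IRF genes were called at an adjusted p below 0.05 (limma, Benjamini-Hochberg over all clusters), beside 16.5% of all genes. Of the 7, 1 was higher, beside 9.16% of all genes, and 2 were lower, beside 7.32%. The median log2 difference was 0.01 over the 7 IRF genes and 0.01 over all genes. With 7 members these shares are a description of the family and were not tested. How many of all genes had groups without overlap was not counted, so a lack of overlap is a description too. All values are log2 expression values, for which the median cluster lay between 4.83 and 4.86 on each of the 6 arrays. Brightness depends on the probes of a cluster, so levels of different IRF genes were not ranked, and only the change of each gene was compared.

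**Figure D1:**
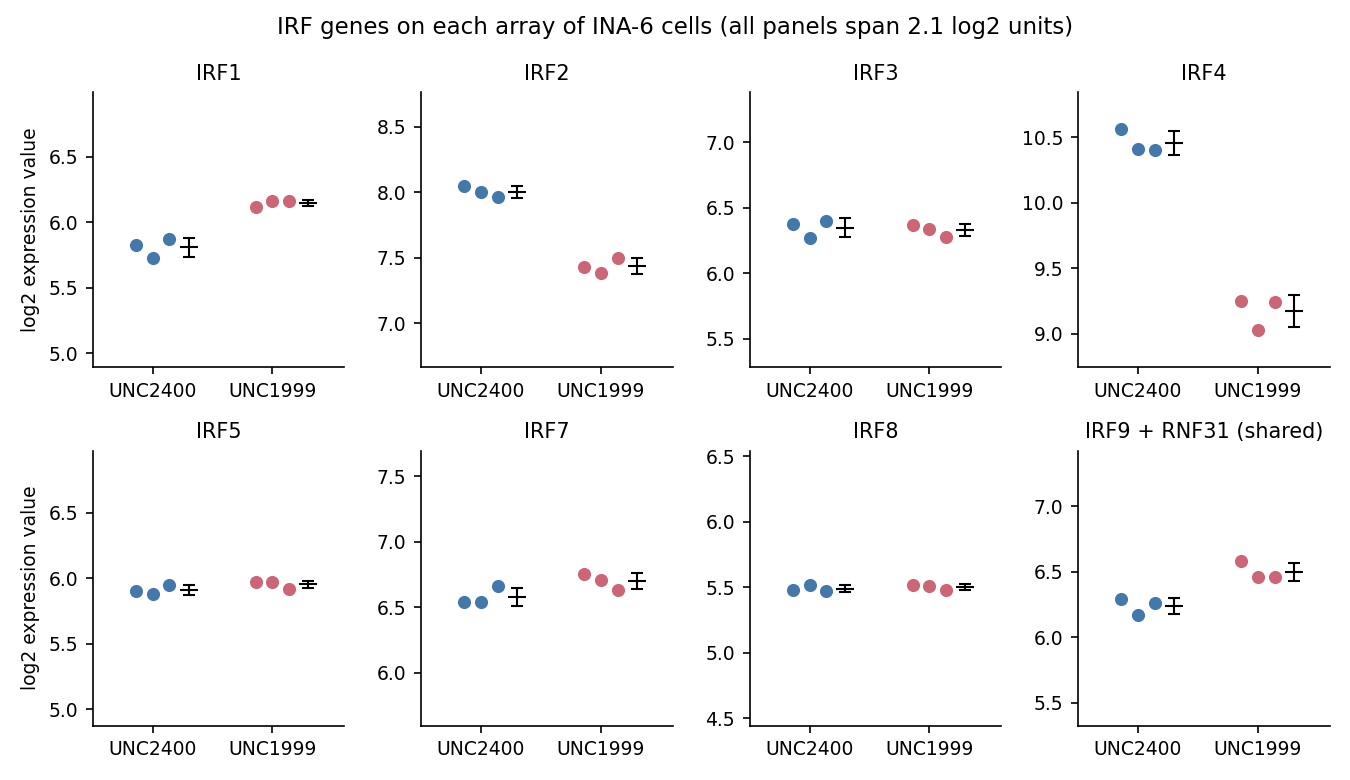
Log2 expression value (y axis) of each IRF gene on the 3 arrays of UNC2400 (blue) and the 3 arrays of UNC1999 (red). Points are single arrays in the order of their replicate number, and the black bars are the mean and SD of each group. The groups are apart for IRF1, IRF2, IRF4 and the cluster shared by IRF9 and RNF31, and overlap for IRF3, IRF5, IRF7 and IRF8.

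IRF4, the lymphoid member on which plasma cells depend, read 10.56, 10.41 and 10.40 on the arrays of UNC2400 replicates 1, 2 and 3. With UNC1999 the values were 9.25, 9.03 and 9.24. All 3 inhibitor arrays lay below all 3 control arrays, with a gap of 1.15 log2 units between the closest values. The mean fell by 1.28 on the log2 scale (SE 0.08, 95% interval -1.47 to -1.1), from 10.46 ± 0.09 to 9.17 ± 0.13 (SD, n = 3 each), which left 41.1% of the control signal. The adjusted p was 0.00122 in limma and at most 0.00766 when any 1 array was left out. This was the 26th largest fall among the 21921 genes. In RNA from whole cultures, fewer cells expressing a gene and less RNA per cell cannot be told apart. All 10 plasma cell markers were called as well, beside 16.5% of all genes, with 9 lower and 1 higher with UNC1999 and a median log2 difference of -1.11. The higher one, CD38, was called in the fits without 1 array only without UNC1999 replicate 2 or UNC1999 replicate 3. Their summed linear signal was between 5750 and 6030 with UNC2400 and between 2440 and 2690 with UNC1999, and its part in the change of IRF4 was not tested.

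The promoter of IRF4 is shown because IRF4 had the largest change of the family. It comprises the 250 bases before the start site in the RefSeq annotation (GRCh38.p14, chr6:391502-391751, plus strand), written 5′ to 3′ with the letters TATAAA in capitals.
IRF4: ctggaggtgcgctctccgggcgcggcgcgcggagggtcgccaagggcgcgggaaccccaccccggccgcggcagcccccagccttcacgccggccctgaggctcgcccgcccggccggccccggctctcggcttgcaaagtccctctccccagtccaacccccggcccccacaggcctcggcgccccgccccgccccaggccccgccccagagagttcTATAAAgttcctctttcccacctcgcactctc
The TATAAA match begins 32 bases before the start site, and 7.33% of 35116 RefSeq promoter windows of the same length held these letters on the forward strand. Each window spanned 250 bases before and 50 bases after a start site. The window of IRF4 held neither GAAANNGAA, the core of an interferon-stimulated response element, nor GGAANNGAA, the core of the composite element at which an ETS factor and IRF4 or IRF8 bind side by side, nor TTCNNNGAA, the core of a STAT site. All 3 were searched on both strands, and they occurred in 8.11%, 7.79% and 7.66% of windows. The TATAAA and TTCNNNGAA searches were added after the promoters had been seen. The IRF4 window held 32 CG dinucleotides, more than 81.1% of promoter windows.

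IRF8, the closest relative of IRF4 and a factor of myeloid and germinal centre B cells, gave values of 5.48, 5.52 and 5.47 with UNC2400 and of 5.52, 5.51 and 5.48 with UNC1999. The groups overlapped throughout. The log2 difference was 0.01 (SE 0.02, 95% interval -0.04 to 0.06, adjusted p = 0.832), an interval that leaves out a change of array signal of the size seen for IRF4. Within each array the ratio of IRF4 to IRF8 was therefore lower with UNC1999 by 1.29 on the log2 scale, without overlap between the groups. IRF8 read within the range of the myeloid markers on these arrays (mean log2 values 4.4 to 6.32). A change of its transcript may be compressed at that level, so the interval does not limit the change of IRF8 RNA. The promoter windows used here included 2 for IRF8, and neither held any of the 4 motifs. Other start sites of IRF8 were not searched, so this does not describe all of its promoters.

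IRF2, which occupies response elements in unstimulated cells and is described as an antagonist of IRF1, read 8.05, 8.0 and 7.96 with UNC2400. The inhibitor arrays gave 7.43, 7.38 and 7.50, all below the control arrays by a gap of 0.45. IRF2 fell by 0.57 on the log2 scale (SE 0.04, 95% interval -0.67 to -0.47, adjusted p = 0.0018, at most 0.0123 without any 1 array), to 67.5% of the control signal. Its 1.48-fold change lay just under the 1.5-fold minimum of the study.

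IRF1, an activator that interferon gamma induces, moved the other way. Its values were 5.83, 5.73 and 5.87 with UNC2400 and 6.12, 6.16 and 6.16 with UNC1999. Every inhibitor array was above every control array, by 0.26 at the closest. The log2 difference was 0.34 (SE 0.04, 95% interval 0.24 to 0.44), which is 1.27-fold, with an adjusted p of 0.00632 and, without UNC1999 replicate 2, of 0.0371. IRF1 was the 746th largest rise of 21921 genes, so its change was small beside those of many other genes.

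The promoter of IRF1 is shown because IRF1 was the only IRF gene with a cluster of its own that was called higher, with the STAT-type letters TTCNNNGAA in capitals. The 250 bases before its start site (RefSeq, GRCh38.p14, chr5:132490774-132491023, minus strand) are written 5′ to 3′.
IRF1: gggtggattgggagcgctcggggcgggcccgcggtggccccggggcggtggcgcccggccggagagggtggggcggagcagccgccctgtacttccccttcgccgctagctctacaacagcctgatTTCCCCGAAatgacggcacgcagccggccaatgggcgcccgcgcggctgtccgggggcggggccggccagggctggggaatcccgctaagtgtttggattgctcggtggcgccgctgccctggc
The match begins 124 bases before the start site. The same letters were in the promoter of IRF9, 63 bases before its start site (RefSeq, GRCh38.p14, chr14:24161192-24161220, plus strand).
IRF9: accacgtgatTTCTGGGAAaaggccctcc
Neither promoter held GAAANNGAA, GGAANNGAA or TATAAA. The IRF1 window held 36 CG dinucleotides, more than 87.3% of promoter windows, and the IRF9 window held 7. The match is a description of the letters only and was found in 7.66% of all windows.

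IRF9, the DNA-binding subunit of the complex that forms after type I interferon, could be read only together with RNF31, the catalytic subunit of the linear ubiquitin ligase. Their shared cluster gave 6.29, 6.17 and 6.26 with UNC2400 and 6.58, 6.46 and 6.46 with UNC1999, with no overlap and a gap of 0.17. The log2 difference was 0.26 (SE 0.05, 95% interval 0.14 to 0.37, adjusted p = 0.026), or 1.2-fold higher. The call was lost in 5 of 6 fits that left out 1 array (adjusted p from 0.0442 to 0.0712) and was kept only without UNC1999 replicate 3. Which of the 2 genes carried the signal was not tested, and the cluster was not counted among the 7 genes.

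The IRF genes that act below innate immune sensors did not pass the test. IRF7, the main inducer of interferon alpha genes, gave 6.54, 6.54 and 6.66 with UNC2400 and 6.75, 6.71 and 6.63 with UNC1999. UNC1999 replicate 3 fell below the highest control array, so that the groups overlapped. The log2 difference was 0.12 (95% interval -0.002 to 0.232, adjusted p = 0.232). IRF5, which signals from MYD88, gave 5.90, 5.88 and 5.95 with UNC2400 and 5.97, 5.97 and 5.92 with UNC1999. Here too an inhibitor array lay within the control values, and the log2 difference was 0.04 (95% interval -0.02 to 0.11, adjusted p = 0.428). IRF3, the constitutive factor that starts interferon beta transcription, gave 6.38, 6.27 and 6.40 with UNC2400 and 6.37, 6.34 and 6.28 with UNC1999. Its groups overlapped, and the log2 difference was -0.02 (95% interval -0.13 to 0.09, adjusted p = 0.879). In array signal, the intervals of IRF3, IRF5 and IRF7 leave out a change in either direction as large as that of IRF1, the smallest called in a cluster of its own. IRF5 read within the range of the myeloid markers (mean log2 values 4.4 to 6.32), and IRF3 just above it. A change of transcript may be compressed there, as for IRF8, so the intervals do not limit the change of RNA. The promoter windows used here included 4 for IRF5. Of these, 1 held GGAANNGAA and TATAAA, another held GAAANNGAA, and the rest held none of the 4 motifs. Promoters of IRF2, IRF3 and IRF7 were not used here.

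**Figure D2:**
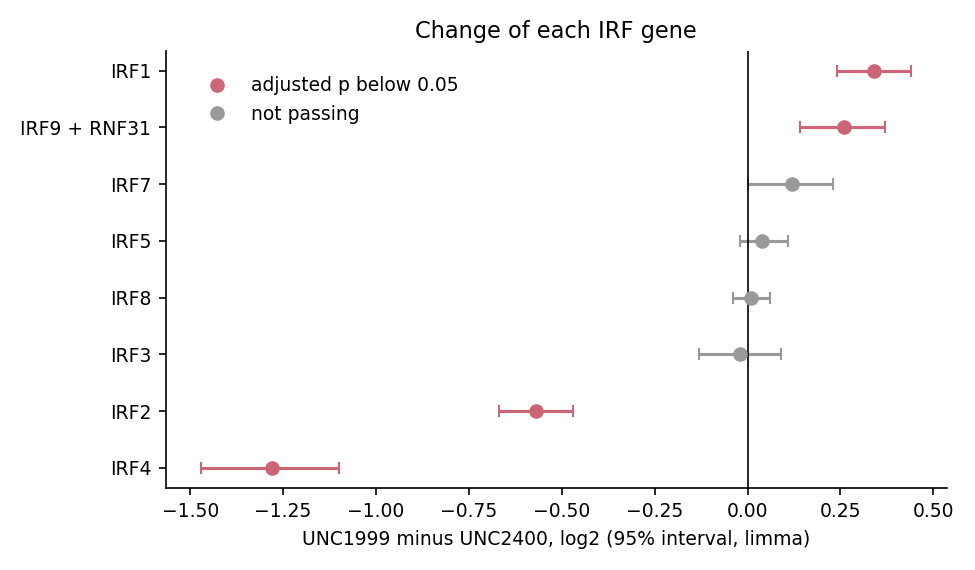
Log2 difference between UNC1999 and UNC2400 (x axis) for each IRF gene and for the cluster shared by IRF9 and RNF31, with the 95% interval of the limma fit. Red points had an adjusted p below 0.05 and grey points did not. IRF4 at -1.28 and IRF2 at -0.57 lie left of 0, and IRF1 at 0.34 lies right of it.

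The question of whether IRF4 changed unequally to its relatives was put to each array by taking the log2 value of IRF4 minus that of another IRF gene, which cancels any factor that scales a whole array. Against IRF2, the relative that fell with it, this ratio was 2.5, 2.41 and 2.44 with UNC2400 and 1.83, 1.65 and 1.74 with UNC1999. The ratio was thus lower on every inhibitor array, by 0.72 on average, so that the fall of IRF4 exceeded that of IRF2 within the arrays. Against IRF3, IRF5, IRF7 and IRF8 the changes of the ratio were -1.26, -1.33, -1.4 and -1.29. Against IRF1 and the cluster of IRF9 and RNF31 they were -1.62 and -1.54. In all 7 ratios the groups did not overlap. Apart from IRF2, the genes set against IRF4 changed little or rose. Their ratios therefore mostly restate the fall of IRF4 and are not separate findings. The exact permutation test, two-sided, gave p = 0.1 for each of the 7, the smallest that 3 arrays against 3 allow, so this design cannot reach 0.05 and the p-values were left unadjusted.

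**Figure D3:**
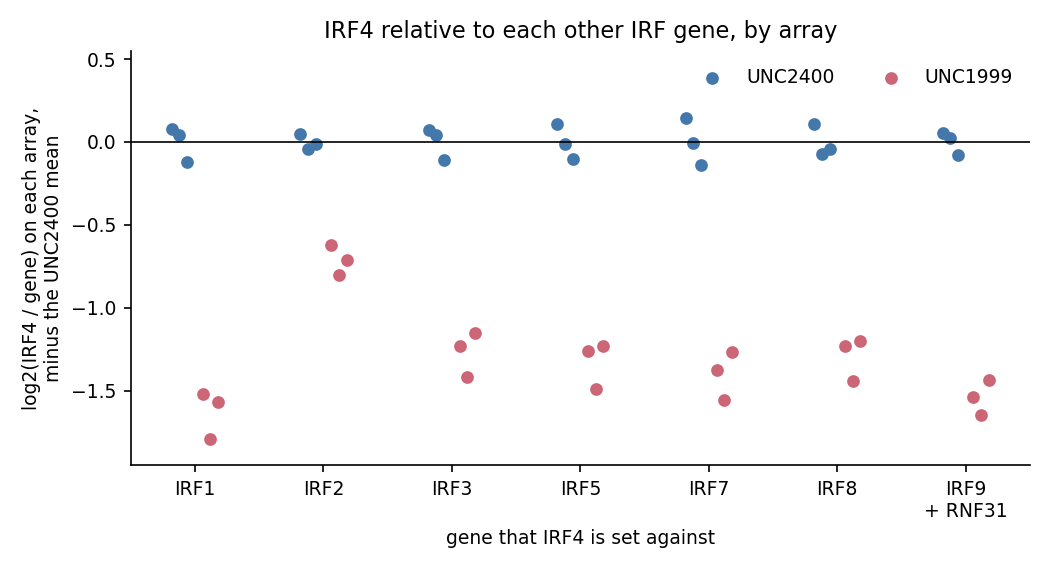
Log2 ratio of IRF4 to each other IRF gene on single arrays, after subtracting the mean of the 3 UNC2400 arrays (y axis, log2 units), for UNC2400 (blue) and UNC1999 (red). The inhibitor arrays lie below the control arrays for all 7 genes set against IRF4, least so for IRF2, where the change was -0.72.

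Genes next to the IRF loci were examined in the order of the RefSeq annotation. DUSP22, a dual-specificity phosphatase and the gene before IRF4 on chromosome 6, fell as well, from 8.71 ± 0.09 to 7.68 ± 0.08 (SD, n = 3 each). It was 2.04-fold lower, and its log2 difference of -1.03 had a 95% interval from -1.18 to -0.88 (adjusted p = 0.00127, at most 0.00851 without any 1 array). EXOC2, an exocyst subunit and the gene after IRF4, had a log2 difference of 0.22 that did not pass (adjusted p = 0.113). PHRF1, beside IRF7 on chromosome 11, was 1.14-fold higher (log2 difference 0.19, adjusted p = 0.00658), whereas CDHR5 on the other side had a log2 difference of 0.0 (adjusted p = 0.982). CARINH and IL5 beside IRF1 (log2 differences 0.02 and 0.01) did not pass the test. Neither did SCAF1 and BCL2L12 beside IRF3 (0.13 and 0.15), KCP and TNPO3 beside IRF5 (0.01 and 0.1) or REC8 beside IRF9 (0.1), with adjusted p between 0.0928 and 0.891 for these 7 genes. For IRF2 and IRF8 the neighbouring genes had no cluster of their own.

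The profile most like that of IRF4 over the 6 arrays, by root mean square distance after subtracting the mean of each gene, was that of LAX1, an adaptor of lymphocyte signalling (distance 0.0427 log2 units among 15156 genes). LAX1 was 2.56-fold lower. PLEKHA8 (0.0509), MYC (0.0553), the copper transporter SLC31A1 (0.0553) and TMEM39A (0.065) followed, with log2 differences of -1.21, -1.18, -1.2 and -1.24. For IRF1 the nearest profiles were those of the cytoskeletal actin ACTB (0.0152), the protease CAPN3 (0.016) and the condensin subunit NCAPD2 (0.0182), with log2 differences between 0.34 and 0.35. With 2 groups of 3 arrays these distances mostly reflect the size of the change, and they are a description.

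The factors that bind DNA beside IRF proteins were measured for 15 of 16 listed genes. Of the 15, 4 were higher with UNC1999, 0 were lower (0 also at an unadjusted p below 0.05 in limma) and 11 did not pass, which is 26.7% called with a median log2 difference of 0.09, beside 16.5%, 9.16% and 7.32% of all genes for either direction, higher and lower. The AP-1 subunit JUN, which pairs with BATF to recruit IRF4, rose from 5.96, 5.80 and 5.92 to 6.63, 6.42 and 6.46 (1.53-fold, adjusted p = 0.00598). JUND (1.42-fold, adjusted p = 0.0301), IRF2BPL (1.16-fold, adjusted p = 0.0122), a relative of the IRF2-binding corepressors, and the ETS factor SPIB (1.15-fold, adjusted p = 0.0382) were also higher. JUN and IRF2BPL were called whichever array was left out. They were the only 2 called without UNC1999 replicate 2, UNC1999 replicate 3, UNC2400 replicate 1 or UNC2400 replicate 3, since JUND was otherwise called only without UNC2400 replicate 2 and SPIB only without UNC1999 replicate 1. The main IRF4 partners had log2 differences of 0.05 for the ETS factor SPI1 (adjusted p = 0.8), 0.12 for BATF (adjusted p = 0.281), 0.14 for IKZF1 (adjusted p = 0.104) and -0.11 for IKZF3 (adjusted p = 0.341). STAT2, the partner of IRF9, had 0.09 (adjusted p = 0.464).

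Among 15 measured factors of plasma cell and germinal centre programmes around IRF4, 6 fell, 1 rose and 8 did not pass (46.7% called against 16.5% of all genes, median log2 difference 0.01). This list holds genes that the study had already named on these samples, so it is not independent evidence of a direction. XBP1, which drives the secretory apparatus, gave 9.21, 9.21 and 8.94 with UNC2400 and 7.84, 7.48 and 7.99 with UNC1999, a 2.55-fold fall (adjusted p = 0.00546). MYC gave 9.06, 8.91 and 8.95 against 7.87, 7.67 and 7.83, a 2.27-fold fall (adjusted p = 0.00104). PRDM1, which encodes BLIMP-1, gave 8.53, 8.45 and 8.26 against 7.58, 7.54 and 7.73, a 1.73-fold fall (adjusted p = 0.00464). None of these 3 genes had overlapping groups, as was the case for IRF4, but the share of all genes without overlap was not counted. The coactivator POU2AF1 was 2.24-fold lower (adjusted p = 0.00189), the elongation factor ELL2 1.94-fold lower (adjusted p = 0.00399) and the germinal centre repressor BCL6 1.4-fold lower (adjusted p = 0.0425, and called in the fits without 1 array only without UNC2400 replicate 3). The single gene that was higher was SPIB, whose call was lost without any 1 array other than UNC1999 replicate 1.

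Sensors and kinases upstream of IRF3, IRF5 and IRF7 were measured for 24 of 27 genes, of which 7 were higher, 0 lower (0 also at an unadjusted p below 0.05 in limma) and 17 did not pass (29.2% called against 16.5% of all genes, median log2 difference 0.02). The kinase IKBKE, which phosphorylates IRF3 and IRF7, rose from 5.93, 5.97 and 6.01 to 6.40, 6.38 and 6.37 (1.33-fold, adjusted p = 0.00125). Its relative TBK1 had a log2 difference of 0.01 (95% interval -0.17 to 0.18, adjusted p = 0.976). The receptor TLR4 was 1.51-fold higher (adjusted p = 0.00147), the adaptor MYD88 1.38-fold higher (adjusted p = 0.00507) and the RNA sensor RIGI 1.18-fold higher (adjusted p = 0.0215). RIGI kept its call only without UNC1999 replicate 3 or UNC2400 replicate 2. Only 3 genes of the list were called higher without UNC1999 replicate 1, UNC1999 replicate 2 or UNC2400 replicate 1, and 4 without UNC2400 replicate 3. Without UNC2400 replicate 2, 1 gene was called lower.

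The interferons themselves, some of which IRF3, IRF5 and IRF7 induce, were called in 0 of 21 genes by limma, beside 16.5% of all genes. An unadjusted p below 0.05 was found for 0 of them. The list also holds others, IFNG among them. Their log2 differences lay between -0.03 and 0.04 and their mean log2 values between 4.29 and 5.76. IFNB1 read 4.33, 4.38 and 4.41 with UNC2400 and 4.35, 4.41 and 4.39 with UNC1999, below the array median in every culture. At so dim a level a change of the transcript would be compressed, and none was detectable on these arrays.

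Receptors, kinases and STAT proteins that interferons signal through were measured for 19 of 20 genes, of which 2 were higher, 6 lower and 11 did not pass (42.1% called against 16.5% of all genes, median log2 difference -0.06). IFNAR2, a chain of the type I interferon receptor, was 1.48-fold lower (adjusted p = 0.00176), the phosphatase PTPN6 1.44-fold lower (adjusted p = 0.00532), STAT4 1.33-fold lower (adjusted p = 0.0057) and the STAT inhibitor PIAS1 1.18-fold lower (adjusted p = 0.00911). USP18, which restrains the type I receptor, was 1.2-fold higher (adjusted p = 0.0153), and IFNGR2, a chain of the interferon gamma receptor, was 1.12-fold higher (adjusted p = 0.0311). IFNGR1, the other chain of that receptor, was 1.19-fold lower (adjusted p = 0.0181), a call kept only without UNC1999 replicate 3 or UNC2400 replicate 3 when 1 array was left out. The rises of USP18 and IFNGR2 were both lost without UNC1999 replicate 1 or without UNC2400 replicate 3, and 1 of them was called without each of the other 4 arrays.

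Genes that type I interferon induces, the targets of the complex with IRF9, were measured for 44 of 46 listed, of which 19 were higher, 1 lower and 24 did not pass (45.5% called against 16.5% of all genes, median log2 difference 0.13). IFI6 rose from 6.92, 6.53 and 6.89 to 8.32, 8.11 and 8.24 (2.72-fold, adjusted p = 0.00237). The ubiquitin ligase DTX3L was 2.33-fold higher (adjusted p = 0.000887), the nuclear body protein SP110 1.96-fold higher (adjusted p = 0.00104) and UBE2L6, an enzyme of ISG15 conjugation, 1.24-fold higher (adjusted p = 0.0022). BST2, which tethers virus particles, was 1.19-fold lower (adjusted p = 0.0147). When 1 array was left out, the count of rises lay between 13 (without UNC2400 replicate 1) and 20 (without UNC1999 replicate 3). The count of falls was 0 without UNC1999 replicate 1 or UNC1999 replicate 2 and 2 without UNC2400 replicate 2. RIGI, IFIH1, USP18 and STAT2 stand in other lists here as well.

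Genes associated with interferon gamma and IRF1 split. Of 35 measured, 7 were higher, 6 lower and 22 did not pass (37.1% called against 16.5% of all genes, median log2 difference 0.01). Guanylate-binding proteins, which act against pathogens inside the cell, moved in both directions. GBP4 rose from 4.92, 4.90 and 5.07 to 6.34, 6.37 and 6.39 (2.64-fold, adjusted p = 0.000576) and GBP1 was 1.16-fold higher (adjusted p = 0.00642), whereas GBP2 fell from 6.37, 6.33 and 6.38 to 5.53, 5.48 and 5.63 (1.76-fold, adjusted p = 0.000954). The STAT-binding protein NMI was 1.28-fold higher (adjusted p = 0.00104) and HLA-C 1.13-fold higher (adjusted p = 0.0156), the latter on a cluster that close HLA copies may share and not called without UNC1999 replicate 1 or UNC1999 replicate 2. The peptide transporter TAP2 was 1.18-fold lower (adjusted p = 0.00628), NLRC5, which activates class I genes, 1.32-fold lower (adjusted p = 0.0095) and the adhesion molecule ICAM1 1.63-fold lower (adjusted p = 0.0097). The higher count was 4 without UNC1999 replicate 1 and 3 without UNC1999 replicate 2.

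**Figure D4:**
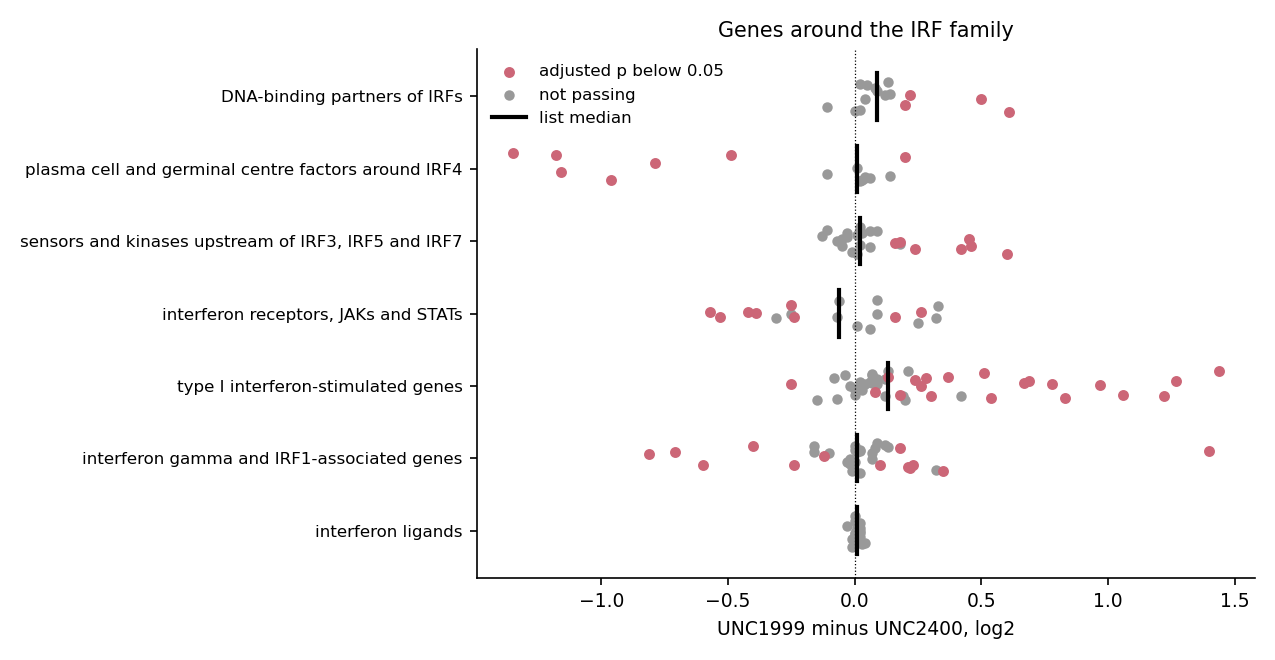
Log2 difference between UNC1999 and UNC2400 (x axis) of each measured gene in 7 lists around the IRF family (y axis), with the list median as a black bar. Red points had an adjusted p below 0.05. Type I interferon-stimulated genes reach 1.44 and the plasma cell and germinal centre factors reach -1.35, while interferon ligands stay between -0.03 and 0.04.

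The arrays of a group correlated at r between 0.9943 and 0.9977 across clusters and those of different groups between 0.9855 and 0.988, with 0 identical pairs. Markers of other cell types that use IRF genes were looked at in the same arrays. Limma called 0 of 6 measured B cell markers (mean log2 values 4.38 to 5.42) and 0 of 8 myeloid markers (4.4 to 6.32), with 1 and 0 of them at an unadjusted p below 0.05, and among the plasmacytoid dendritic cell markers TCF4 alone was called, 1.3-fold higher, with CLEC4C between 4.43 and 4.46 on every array. Of 8 T and NK cell markers CD3E alone was called (log2 difference 0.3, adjusted p = 0.00804). Beside these marker counts, 16.5% of all genes were called. The summed linear signal of the dendritic cell list was 238 to 241 with UNC2400 and 264 to 267 with UNC1999, that of the T and NK cell list 248 to 257 and 259 to 267, that of the myeloid list 285 to 304 and 291 to 301, and that of the B cell list 191 to 195 and 199 to 202. All arrays are of the INA-6 line, so these lists were read as transcripts and not as shares of other cell types. How they relate to the values of IRF1, IRF7 and IRF8 was not tested.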

How the data were processed

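Gene expression was measured on Affymetrix arrays of INA-6 cells, 3 with UNC1999 and 3 with UNC2400. The authors used GeneSpring and deposited log2 values, normalized across arrays and not centred by gene, for 65529 transcript clusters on each array. How they summarised, normalized and corrected for background, and on which genome build, is not given in the sources used here. There were 0 columns of other samples.

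Clusters were named through the platform annotation, updated with RefSeq symbols. It gave 1 symbol for 23129 clusters, several for 1221 and none for 41179. Of 344 rows of the gene table of the study that were found by value (within 0.0001), 312 carried the same gene name. A gene on several clusters was represented by the one with the highest mean.

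Differences were tested with limma 3.58.1 in R 4.3.3 (lmFit and eBayes, group only, two-sided, Benjamini-Hochberg over all clusters, threshold 0.05), and the fit was tested on simulated data. Alternatives were 10 refits (replicate block, quantile normalization, no dim clusters, intensity trend with robust prior, and each array left out) and the cutoffs of the methods (unadjusted p up to 0.02 with a change of 1.5-fold or more). For listed genes on several clusters, the second-highest cluster was also taken in place of the highest. Low log2 values compress folds, and 3 arrays per group limit the precision.

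All IRF genes were named. Of each list around them, up to 4 genes called higher and 4 called lower with the smallest p were named, with IRF partners in the pathway (XBP1 among them), the adjacent genes and the nearest profiles. BCL6, IFNGR1, IFNB1, IFIH1, the cell type markers CD38, CD3E, TCF4 and CLEC4C and the microRNA loci fall outside this rule and were chosen after their values were seen. The family and the lists were chosen with earlier results of these data known. Gene neighbours and promoter sequences came from RefSeq (GRCh38.p14).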

Additional observations from a re-analysis of the deposited data

How the results depend on the processing

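IRF1, IRF2 and IRF4 kept their direction and their calls in all 10 refits, with log2 differences from 0.3 to 0.37 for IRF1, from -0.6 to -0.53 for IRF2 and from -1.32 to -1.21 for IRF4. With a replicate block, their adjusted p was 0.0289, 0.0163 and 0.00788 in limma. The series description says that compounds were compared within replicates, but the deviations of equally numbered arrays correlated at only 0.0554, 0.0834 and -0.0121, so the pairing was not part of the test. Over all clusters the replicate block gave 2162 higher in place of 3273, and 2100 lower in place of 2881. Leaving out 1 array gave 1486 to 3657 higher and 1428 to 2856 lower clusters, the lowest without UNC1999 replicate 2. At the thresholds of the study there were 453 higher and 619 lower clusters, and the IRF genes called were 0 higher and 1 lower (IRF4), since IRF1 and IRF2 changed by less than 1.5-fold. The uncalled IRF3 ranged from -0.06 to 0.01 when 1 array was left out, turning to 0.01 without UNC1999 replicate 3 and without UNC2400 replicate 3, and the uncalled IRF8 to -0.01 with quantile normalization. The cluster of IRF9 and RNF31 gave 0.22 to 0.28 without 1 array. The lists around the family moved more. At the thresholds of the study the rises were 9 for type I interferon genes, 1 each for interferon gamma genes, partners and sensors, and 0 for receptors and plasma cell factors, and the falls were 3 for interferon gamma genes and 0 for receptors and type I interferon genes. The replicate block left 4 rises of interferon gamma genes, 1 of receptors and 0 of plasma cell factors. Quantile normalization gave 2 rises of plasma cell factors, and leaving out dim clusters gave 4 of receptors. No IRF gene had a second cluster, so the alternative with the second-highest cluster gave no value for the family. It gave 1 rise and 5 falls of plasma cell factors, and 7 rises and 6 falls of interferon gamma genes. Where no cause is named above, the cause was not tested.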

Other observations

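The loci of the microRNAs that the study considered beside IRF4 had clusters on these arrays, which read gene transcripts and not mature microRNAs. MIR125A read 5.74 ± 0.10 with UNC2400 and 5.7 ± 0.07 with UNC1999 (SD, n = 3 each), a log2 difference of -0.03 (95% interval -0.19 to 0.12, adjusted p = 0.834 in limma). The log2 differences were -0.07 for MIR320C1 (95% interval -0.16 to 0.02, adjusted p = 0.35) and -0.01 for MIR320C2 (95% interval -0.06 to 0.05, adjusted p = 0.936). MIR320C1 read 4.55 with UNC2400 and 4.48 with UNC1999, and MIR320C2 read 4.39 and 4.38. These means lay below the lowest array median of 4.83. At that level a change may be compressed, so the intervals of MIR320C1 and MIR320C2 do not limit it. By qPCR, the paper reports that primary miR-125a and miR-320c rose in INA-6 cells with UNC1999, against DMSO, at the same dose and time. It also reports rises of the mature forms, by microRNA array and qPCR, and less EZH2 and H3K27me3 at both genes by ChIP. Neither was measured on the arrays used here. Whether these clusters read the primary transcripts was not tested. These 3 loci were chosen after their values were seen.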
